A study of Mus musculus with 22 samples.

Results

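The IL1 receptor family was followed through 8 named genes, taken by symbol from the deposited gene tables: Il1r1, Il1r2, Il1rn, Il1rap, Il1rl1, Il1rl2, Il18r1 and Il18rap. They are 8 of the 24911 genes listed in each table, of which 20163 were above 0 in some library. All 8 members were above 0 in some library.

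The study measured poly(A) RNA in mouse cells and tissues, alongside maps of transcription factor binding. There were 22 libraries, and each was the only library of its group. The CD4 T-cell libraries were Tfr cells (follicular regulatory T cells, sorted as CD4+CD44+CXCR5+PD1+CD25+), Tfh cells (follicular helper T cells, for which the labels name no sort), activated non-Tfh T cells (sorted as CD4+CD44+CXCR5-PD1-CD25-) and CD4+ T cells, each as a library labelled MUT and as an unmarked one. The labels do not say which mutation MUT stands for. A further CD4+ T-cell library was activated with ConA, a plant lectin that drives T cells to divide. Primary B-cell libraries were activated with LPS+IL4, aCD40+IL4, LPS, LPS+IL21, LPS+a-d-dextran or aBCD180, and 1 was of splenic B cells without a named stimulus. Per the labels, mature B cells came from C57BL/6J spleen by negative selection. The other libraries were basophils, back skin, putamen, medulla oblongata, sensorimotor cortex and CH12, a B lymphoma line, as 1 clone (bc5). Sex, age, the number of animals and the strain of the T cells, basophils and tissues are not given in the sources used here, and nothing says that libraries came from separate animals.

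IL1 signals through the receptor encoded by Il1r1 once the accessory chain encoded by Il1rap has joined it. The same accessory chain serves the IL33 receptor (Il1rl1, also called ST2) and the IL36 receptor (Il1rl2), while IL18 has its own receptor (Il18r1) and accessory chain (Il18rap). Il1r2 encodes a decoy that binds IL1 without signalling, and Il1rn encodes a secreted antagonist that occupies the IL1 receptor, so it is a ligand-like regulator and not a receptor.

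In the RefSeq annotation of GRCm38.p6 (the files were made on mm10, the same mouse assembly), 6 of the 8 members lie side by side on the plus strand of chromosome 1, from 40084692 to 40551707, a stretch of 467.0 kb. Their order is Il1r2, Il1r1, Il1rl2, Il1rl1, Il18r1 and Il18rap. Il1rn lies at chr2:24336860-24351491 and Il1rap at chr16:26581509-26730128, both on the plus strand. The lncRNA gene Gm16894 (chr1:40076212-40085851) overlaps the start of Il1r2 (chr1:40084692-40125230), and the pseudogene Gm17970 lies within Il1rl2. Whether reads were counted by strand is not given in the sources used here, so reads of overlapping genes could not be told apart.

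The 250 bases upstream of a start site are shown for Il1rl1, Il1r2 and Il1rn. Il1rl2 and Il18rap, which also carry follicular T-cell or basophil results, are not shown. Sequences are from RefSeq (GRCm38.p6), plus strand, 5′ to 3′, in lower case, with a motif match in capitals. Il1rl1 is shown at both of its listed start sites (chr1:40429320-40429569 and chr1:40439379-40439628), Il1r2 at its listed site (chr1:40085843-40086092) and Il1rn at its first (chr2:24336610-24336859).
Il1rl1 site 1: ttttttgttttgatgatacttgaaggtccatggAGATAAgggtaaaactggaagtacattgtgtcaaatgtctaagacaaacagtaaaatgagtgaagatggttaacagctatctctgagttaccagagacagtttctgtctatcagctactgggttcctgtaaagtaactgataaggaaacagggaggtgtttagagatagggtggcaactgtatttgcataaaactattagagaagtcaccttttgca
Il1rl1 site 2: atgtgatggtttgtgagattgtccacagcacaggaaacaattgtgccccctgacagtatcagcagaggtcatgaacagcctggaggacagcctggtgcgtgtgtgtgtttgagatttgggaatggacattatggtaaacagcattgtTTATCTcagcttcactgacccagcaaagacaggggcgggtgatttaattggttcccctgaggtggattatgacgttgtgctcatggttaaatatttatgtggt
Il1r2: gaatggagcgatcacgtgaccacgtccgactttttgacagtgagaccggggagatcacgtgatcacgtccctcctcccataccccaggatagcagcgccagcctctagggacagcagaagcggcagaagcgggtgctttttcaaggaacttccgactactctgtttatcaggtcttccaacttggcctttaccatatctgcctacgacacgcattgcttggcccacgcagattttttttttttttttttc
Il1rn site 1: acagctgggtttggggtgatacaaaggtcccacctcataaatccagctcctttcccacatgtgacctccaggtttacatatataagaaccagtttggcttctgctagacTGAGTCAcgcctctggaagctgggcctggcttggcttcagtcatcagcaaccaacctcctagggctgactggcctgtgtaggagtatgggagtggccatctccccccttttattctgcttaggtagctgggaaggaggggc

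The motifs searched on both strands were AGATAA (the GATA motif), TGANTCA (AP-1), TTCCNGGAA (STAT) and the 10-base NF-kB motif. Il1rl1 had AGATAA on the plus strand at 217 to 212 bases before site 1, and its reverse complement TTATCT at 103 to 98 bases before site 2. Il1rn had the AP-1 match TGAGTCA at 141 to 135 bases before its first site. No match to any of the motifs occurred in the Il1r2 window or at the other listed Il1rn sites. The same held for every listed site of Il1r1, Il1rap, Il1rl2, Il18r1 and Il18rap, whose windows are not shown. Of 32851 mouse windows of the same length, 9.99% held the GATA motif, 6.75% the AP-1 motif, 0.913% the STAT motif and 1.21% the NF-kB motif. A match is a description of the letters and does not show binding.

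Depth ran from 30.8 to 147.9 M expected counts, with a median of 46.2 M. The summed TPM (a level scaled for transcript length and library size) of 4 regulatory T markers was 1510 in Tfr MUT and 1260 in Tfr, and that of 4 Tfh markers was 1040 in Tfh MUT and 982 in Tfh. The Tfh libraries also held regulatory T markers, at 293 TPM (MUT) and 483 TPM (unmarked) in sum, with Foxp3 at 69.18 and 142.83 TPM, and non-Tfh libraries 83.8 TPM (MUT) and 68.8 TPM (unmarked). Tfh markers summed to 613 TPM in Tfr MUT and 515 TPM in Tfr. B-cell transcripts were unequal among the T-cell libraries. The 5 B-cell markers summed to 134 TPM in Tfr MUT and 470 TPM in Tfr, and to 653 TPM in Tfh MUT and 171 TPM in Tfh. In the non-Tfh and CD4+ libraries they summed to between 85.8 and 111 TPM. The basophil library held 35500 TPM of 6 basophil markers, 3300 TPM of 6 neutrophil markers (all 6 at 1 TPM or more) and 382 TPM of 4 mast cell markers. It also held 351 TPM of 4 macrophage markers. In bulk RNA, fewer cells of a type and less RNA per cell cannot be told apart.

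**Figure D1:**
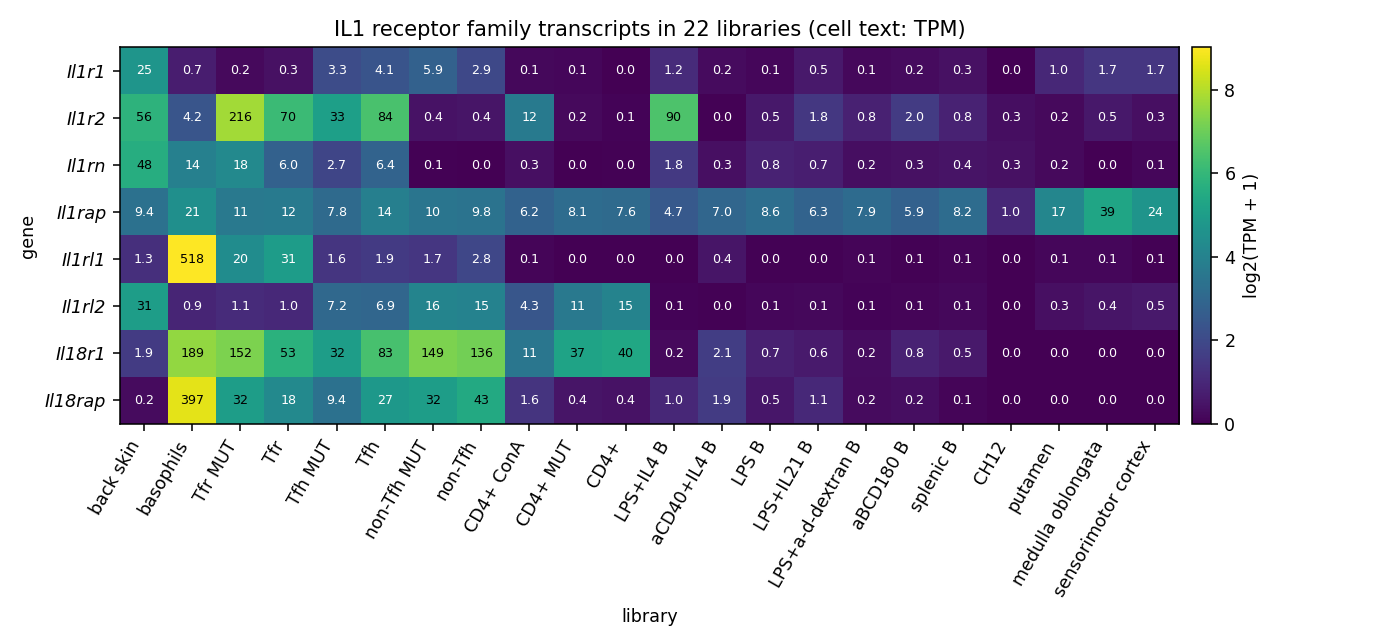
Level of each member (rows) in each of the 22 libraries (columns), as colour on the log2(TPM + 1) scale with the TPM printed in each cell. Basophils stand highest for Il1rl1, Il18r1 and Il18rap, back skin for Il1r1, Il1rn and Il1rl2, Tfr MUT for Il1r2 and medulla oblongata for Il1rap.

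The signalling IL1 receptor Il1r1 was low in all lymphocytes and highest in back skin. It stood at 0.18 TPM in Tfr MUT and 0.31 TPM in Tfr, at 3.30 TPM in Tfh MUT and 4.12 TPM in Tfh, and at 5.94 TPM in non-Tfh MUT and 2.89 TPM in non-Tfh. CD4+ MUT had 0.12 TPM and CD4+ had no counts, which allows up to 0.0154 TPM (3 counts). Both Tfr libraries therefore lay below both Tfh and both non-Tfh libraries, and their levels rested on 25 counts in Tfr MUT and 27 counts in Tfr. Back skin had 25.31 TPM, and no other library exceeded 5.94 TPM.

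The decoy receptor Il1r2 had the widest range in TPM of the 8 members among the CD4 T cells. It reached 216.39 TPM in Tfr MUT and 69.88 TPM in Tfr, and 33.13 TPM in Tfh MUT and 84.45 TPM in Tfh. Non-Tfh cells had 0.36 TPM (MUT) and 0.44 TPM (unmarked), and CD4+ cells 0.16 TPM (MUT) and 0.07 TPM (unmarked). The 4 follicular libraries thus lay far above the 4 non-follicular ones without overlap, while Tfr and Tfh overlapped each other. Among the other libraries, Il1r2 was high in LPS+IL4 B cells (89.67 TPM) and back skin (55.54 TPM), followed by ConA-activated CD4+ cells (11.92 TPM) and basophils (4.22 TPM).

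The antagonist Il1rn followed a similar order at lower levels. Tfr MUT had 17.82 TPM and Tfr 5.97 TPM, Tfh MUT 2.71 TPM and Tfh 6.38 TPM. Non-Tfh MUT had 0.05 TPM and non-Tfh no counts, which allows up to 0.055 TPM, and the CD4+ libraries had 0.02 TPM (MUT) and 0.03 TPM (unmarked). As for the decoy, the follicular libraries did not overlap the others and overlapped each other. Back skin was highest at 47.71 TPM and basophils had 14.40 TPM. Over the 9 CD4 T libraries, log2(TPM + 1) of Il1r2 and Il1rn had a Pearson r of 0.95, and over all 22 libraries 0.78, where the T libraries share their lineage and many of their sorts.

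The accessory chain Il1rap was the most even member. It lay between 6.22 TPM (ConA) and 14.04 TPM (Tfh) in the 9 CD4 T libraries, with a median of 9.85 TPM, and between 4.68 TPM (LPS+IL4) and 8.63 TPM (LPS) in the 7 primary B libraries, with a median of 6.95 TPM. The brain regions and basophils had the highest levels, with 38.90 TPM in medulla oblongata, 24.35 TPM in sensorimotor cortex, 21.29 TPM in basophils and 16.65 TPM in putamen. CH12 was lowest at 1.00 TPM.

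The IL33 receptor Il1rl1 was the most restricted member. Basophils had 518.19 TPM. Tfr MUT had 20.10 TPM and Tfr 30.95 TPM, and these 3 libraries were the highest of the 22. Tfh MUT had 1.62 TPM and Tfh 1.87 TPM, non-Tfh MUT 1.71 TPM and non-Tfh 2.80 TPM, and CD4+ MUT 0.01 TPM and CD4+ 0.02 TPM. Every remaining library was at or under 1.33 TPM (back skin). The 6 basophil markers summed to 0.56 TPM in Tfr MUT and 1.27 TPM in Tfr, against 4.30 TPM in CD4+ MUT and 5.34 TPM in CD4+. In each Tfr library 2 of the 6, Mcpt8 and Prss34, had no counts, and the others were above 0 but under 1 TPM. The part of basophil transcripts in the Il1rl1 levels was not tested.

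The IL36 receptor Il1rl2 ran the other way among T cells. It had 1.14 TPM in Tfr MUT and 1.04 TPM in Tfr, and 7.24 TPM in Tfh MUT and 6.86 TPM in Tfh. Non-Tfh cells had 15.79 TPM (MUT) and 14.94 TPM (unmarked), and CD4+ cells 11.41 TPM (MUT) and 15.26 TPM (unmarked). The Tfr pair was lowest, the Tfh pair lay in between, and non-Tfh and CD4+ overlapped. Back skin was highest at 31.25 TPM, and none of the 7 primary B libraries exceeded 0.15 TPM.

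The IL18 receptor Il18r1 was abundant in every CD4 T library, while its accessory chain Il18rap was low in CD4+ cells. Il18r1 had 151.97 TPM in Tfr MUT, 53.06 TPM in Tfr, 31.64 TPM in Tfh MUT and 82.53 TPM in Tfh, and 148.98 TPM in non-Tfh MUT and 136.28 TPM in non-Tfh. CD4+ MUT had 36.85 TPM and CD4+ 40.32 TPM. Il18rap had 31.63 TPM in Tfr MUT and 17.94 TPM in Tfr, 9.38 TPM in Tfh MUT and 26.91 TPM in Tfh, and 31.52 TPM in non-Tfh MUT and 43.20 TPM in non-Tfh, against 0.41 TPM in CD4+ MUT and 0.37 TPM in CD4+. All 6 libraries of follicular and non-Tfh cells thus stood above both CD4+ libraries for Il18rap, whereas for Il18r1 Tfh MUT lay below them. Basophils were highest for both genes, at 189.14 TPM of Il18r1 and 397.33 TPM of Il18rap.

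**Figure D2:**
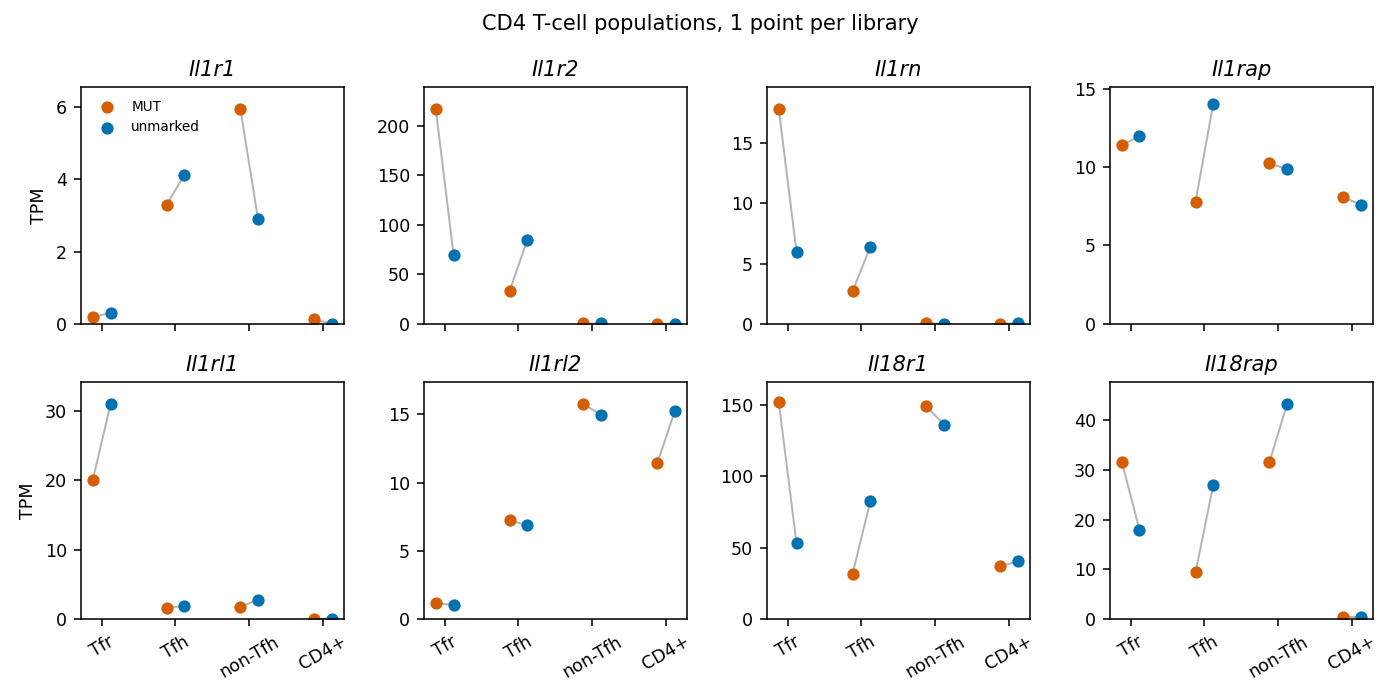
TPM of each member in the 4 CD4 T-cell populations, with 1 point per library (orange, MUT, left; blue, unmarked, right) joined within a population; each panel has its own axis from 0. The Tfr points stand apart from the other populations for Il1rl1 (20.10 and 30.95 TPM) and Il1rl2 (1.14 and 1.04 TPM), and the MUT and unmarked points of Il1r2, Il1rn, Il18r1 and Il18rap cross between Tfr and Tfh.

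Tests between T-cell populations used 1 fit over the 8 libraries without ConA, with population and MUT label as terms (edgeR quasi-likelihood test on rounded expected counts). Each population entered with its unmarked and its MUT library, and a gene was called at a Benjamini-Hochberg adjusted p under 0.05 over the 13064 genes tested. All 8 members passed the filter on low counts. Fold changes are log2 values from that fit, and comparisons of members in which a population had only a few counts are given as a ratio with a counting interval.

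Tfr against Tfh cells asks what sets the regulatory follicular cells apart. Of the 8 members 2 were called, where 0.398% of all genes tested were called. Il1rl1 rose by 3.80 ± 0.23 (log2 fold change ± SE, adjusted p = 0.015, edgeR) and Il1rl2 fell by 2.70 ± 0.22 (adjusted p = 0.0173, edgeR). For both the libraries did not overlap, and the share of all genes without overlap was not counted. Il1r1 had a log2 fold change of -4.00 ± 1.09 and was not called (adjusted p = 0.241, edgeR), but was called lower with DESeq2. The median over the 8 members was 0.71, beside -0.02 over all genes tested. Without any 1 of the non-Tfh, non-Tfh MUT, Tfr or Tfr MUT libraries neither member was called, with log2 fold changes for Il1rl1 between 3.77 and 3.82. Calls over all genes fell in those runs as well, so the lost calls are not particular to these members.

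Against non-Tfh cells, 4 of the 8 members were called in Tfr, where 14.6% of all genes were. Il1r2 rose by 8.33 ± 0.98 (adjusted p = 0.00586, edgeR) and Il1rl1 by 3.30 ± 0.22 (adjusted p = 0.00191). Il1rn also rose (adjusted p = 0.00948, edgeR), with 354 times the depth-scaled counts (95% counting interval 151 to 1090). Il1rl2 fell by 3.99 ± 0.23 (adjusted p = 0.00173, edgeR). Il1r1 was not called at -4.26 ± 1.11 (adjusted p = 0.0545, edgeR), but was called with DESeq2 and with limma. The member median was -0.31, beside 0.02 over all genes. Without the non-Tfh or the non-Tfh MUT library, Il1r2 and Il1rn were not called, while Il1rl1 and Il1rl2 were. Calls over all genes fell in those runs as well.

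Tfh cells differed from non-Tfh cells in 3 of the 8 members, where 6.58% of all genes were called. Il1r2 rose by 7.12 ± 0.94 (adjusted p = 0.0145, edgeR). Il1rn rose (adjusted p = 0.0244, edgeR) with a ratio of 109 (95% counting interval 46.1 to 337). Il1rl2 fell by 1.28 ± 0.21 (adjusted p = 0.0236, edgeR). Il1rl1 had a log2 fold change of -0.49 ± 0.21 and was not called (adjusted p = 0.209). The member median was -0.37, beside 0.02 over all genes. None of the 3 was called without the non-Tfh or the non-Tfh MUT library, and Il1rl2 was not called without the CD4+ library. Calls over all genes fell in those runs as well, so the lost calls are not particular to these members. Over the 14 alternative runs log2 fold changes lay between 5.27 and 8.58 for Il1r2, 2.35 and 10.85 for Il1rn, and -1.40 and -1.02 for Il1rl2. Il1rn was not called with limma (adjusted p = 0.0569). Regulatory T markers moved with Il1r2 and Il1rn here, at 293 TPM in Tfh MUT and 483 TPM in Tfh, against 83.8 TPM in non-Tfh MUT and 68.8 TPM in non-Tfh, and Foxp3 was called higher (2.88 ± 0.48, adjusted p = 0.0269, edgeR). Their part in the member results was not tested.

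Set against CD4+ cells, the follicular populations differed in most members. In Tfr 5 of 8 were called, where 30.4% of all genes were: Il1r2, Il1rn, Il1rl1 and Il18rap rose and Il1rl2 fell. In Tfh 6 of 8 were called, where 26.4% of all genes were, the same 5 in the same directions together with Il1r1, which rose. The ratio of depth-scaled counts of Il1rl1 was 1270 for Tfr over CD4+ (95% counting interval 545 to 3920) and 85.9 for Tfh over CD4+ (36.4 to 267). For Il1r2 it was 1190 for Tfr (626 to 2600) and 398 for Tfh (209 to 872). Il18rap rose by 5.78 ± 0.69 in Tfr (adjusted p = 0.00272, edgeR) and by 5.23 ± 0.68 in Tfh (adjusted p = 0.00431), and Il1rl2 fell by 3.90 ± 0.23 in Tfr (adjusted p = 0.000495) and by 1.20 ± 0.21 in Tfh (adjusted p = 0.0105).

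These comparisons share the CD4+ libraries. The member median was 3.90 for Tfr and 5.63 for Tfh, beside 0.02 and 0.03 over all genes. In the Tfh comparison Il1r1 had a ratio of 60.8 over CD4+ (35.9 to 112, adjusted p = 0.0197, edgeR). It was not called without the non-Tfh or the non-Tfh MUT library. Il1rn in Tfh was not called without either CD4+ library, and Il1rl2 in Tfh not without the unmarked one. Calls over all genes fell in all of these runs as well.

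Activated non-Tfh cells differed from CD4+ cells in 2 of 8 members, where 3.85% of all genes were called. Il1rl1 rose (adjusted p = 0.00162, edgeR), with a ratio of 127 (95% counting interval 54.2 to 393), and Il18rap rose by 6.46 ± 0.70 (adjusted p = 0.01, edgeR). Il18r1 had a log2 fold change of 1.77 ± 0.64 (adjusted p = 0.258, edgeR) and was not called. Il1r1 had a ratio of 97.5 (58.0 to 179, adjusted p = 0.0563, edgeR) and was not called either. It was called higher with DESeq2, with limma, without the filter on low counts and without the MUT term. The member median was 1.73, beside -0.01 over all genes. Il18rap was not called when any non-Tfh or CD4+ library was left out, and calls over all genes fell in those runs as well. NK-cell markers, whose cells also carry Il18rap, summed to 53.0 TPM in non-Tfh MUT and 40.0 TPM in non-Tfh, to between 3.39 and 6.76 TPM in Tfr and to 14.8 TPM in both Tfh libraries, against 6.40 TPM in CD4+ MUT and 15.6 TPM in CD4+. Ncr1, the most specific of the 3, was at or under 0.49 TPM in these 8 libraries. The part of these markers in the non-Tfh result was not tested.

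**Figure D3:**
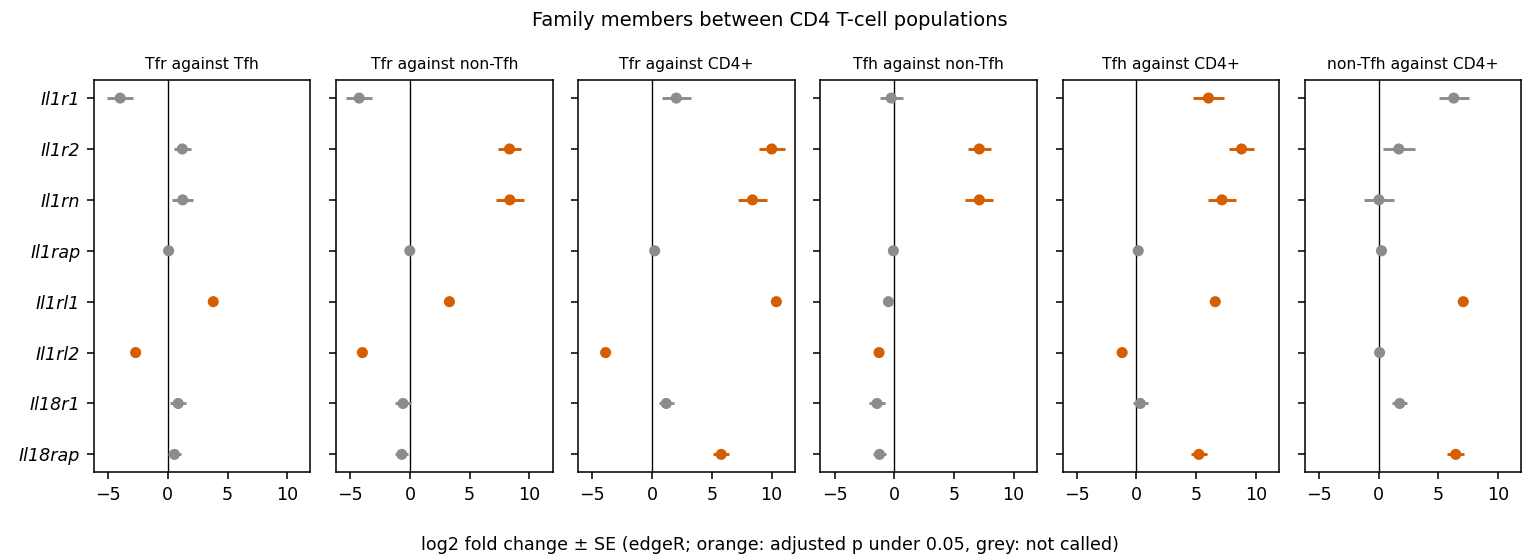
Log2 fold change of each member in the 6 population comparisons, as points with bars of 1 SE from edgeR; orange marks an adjusted p under 0.05 and grey a member not called. Il1rl1 lies to the right of 0 and Il1rl2 to the left in all 3 Tfr comparisons, and Il1rap stays near 0 in all 6.

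The balance of decoy to signalling receptor within a library separated the populations. The TPM ratio of Il1r2 to Il1r1 was 1200 in Tfr MUT and 225 in Tfr, and 10.0 in Tfh MUT and 20.5 in Tfh, against 0.0606 in non-Tfh MUT and 0.152 in non-Tfh. In the CD4+ libraries neither gene had more than 14 counts and no ratio is given. ConA-activated cells had a ratio of 91.7 and LPS+IL4 B cells 76.6, while back skin, where Il1r1 was abundant, had 2.19. The Tfr ratios rest on 25 and 27 counts of Il1r1.

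The IL18 receptor pair separated the sorted populations from CD4+ cells. Il18r1 exceeded Il18rap between 2.96 and 4.80 times in the 6 Tfr, Tfh and non-Tfh libraries and 6.62 times in ConA-activated cells, against 89.9 times in CD4+ MUT and 109 times in CD4+. Basophils had more Il18rap than Il18r1, with a ratio of 0.476. The IL33 receptor exceeded its accessory chain Il1rap 24.3 times in basophils, 1.77 times in Tfr MUT and 2.59 times in Tfr, and in every other library with 10 counts of each the ratio was 0.284 or less.

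**Figure D4:**
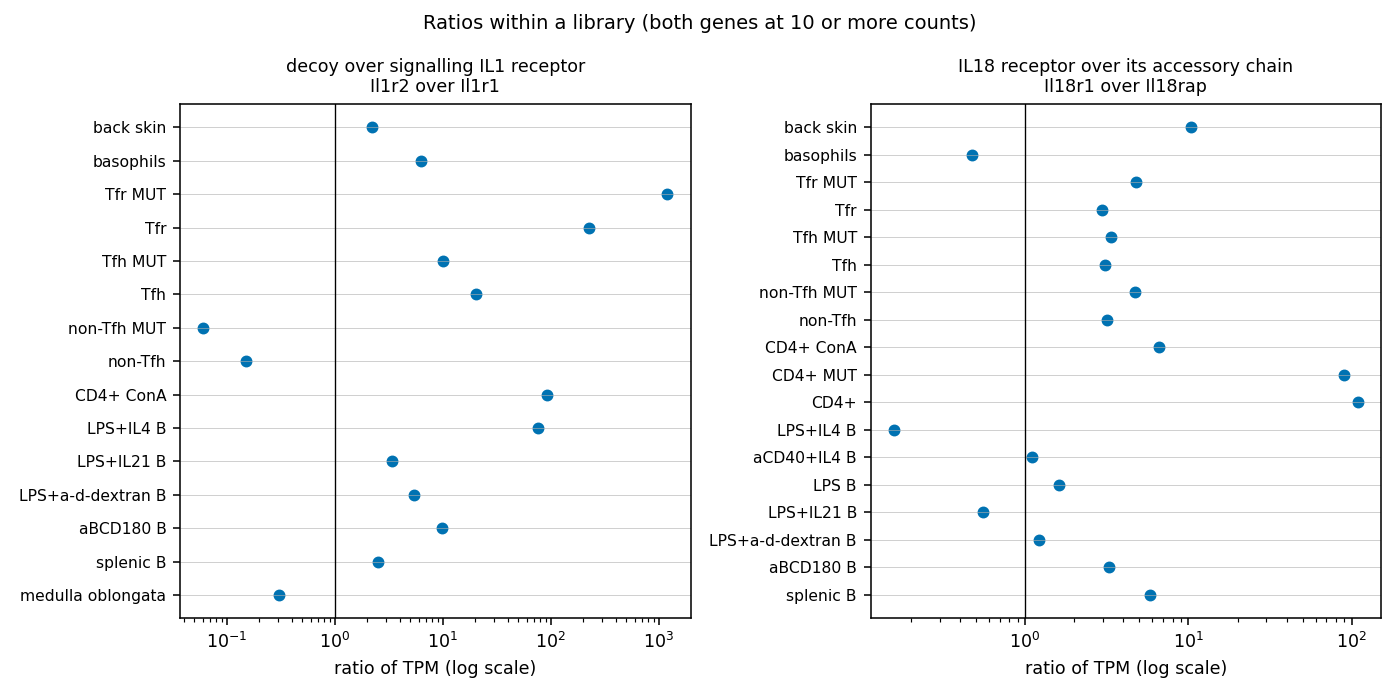
TPM ratio of the decoy Il1r2 to the signalling receptor Il1r1 (left) and of Il18r1 to its accessory chain Il18rap (right), on log axes, 1 point per library in which both genes had 10 or more counts; the line marks a ratio of 1. The Il1r2 ratio spans 0.0606 in non-Tfh MUT to 1200 in Tfr MUT, and the Il18r1 ratio is highest in the CD4+ libraries.

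The MUT label was tested over all 4 populations. No member was called (0 of 8, edgeR), and 0.0% of the 13064 genes were. At an unadjusted p under 0.05 there were 192 genes and 1 member, Il1rl1, with a log2 fold change of -0.48 ± 0.17 and an adjusted p of 1.00. It was lower in MUT in 4 of 4 populations, in CD4+ on only 1 count in MUT and 4 counts in the unmarked library. DESeq2 called 0 members and 2 genes and limma 0 of either.

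The IL1 pathway around the receptors was described with 6 lists. In Tfr against Tfh, none of the members tested was called: 0 of 3 ligands and soluble regulators, 0 of 14 adaptors and kinases, 0 of 3 ligand-processing genes, 0 of 8 response genes, 0 of 7 lineage factors and 0 of 1 other receptor (Sigirr). At an unadjusted p under 0.05, 1284 of all genes and 3 family members stood in that comparison. Against non-Tfh, Tfr had 1 of 14 adaptors lower, Irak3, which restrains signalling (1.92 ± 0.70 TPM in Tfr and 6.49 ± 1.02 TPM in non-Tfh, SD, n = 2; adjusted p = 0.0383, edgeR). Areg, a growth factor made by tissue regulatory T cells, was 1 of 8 response genes and rose (22.9 ± 20.9 TPM in Tfr and 0.265 ± 0.106 TPM in non-Tfh, SD, n = 2; adjusted p = 0.022, edgeR). Of the lineage factors named here, Foxp3 and Bcl6 rose. The shares of 1 in 14 adaptors and 1 in 8 response genes were not above the 14.6% of all genes called in this comparison.

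Against CD4+ cells the processing enzyme Casp1, which cleaves the precursors of IL1 beta (Il1b) and IL18, rose in all 3 populations. It averaged 97.2 ± 2.54 TPM in Tfr, 145 ± 28.1 TPM in Tfh and 69.6 ± 2.41 TPM in non-Tfh, against 7.72 ± 3.13 TPM in CD4+ (SD, n = 2 each; adjusted p between 0.00125 and 0.00907, edgeR). The ligand Il18 also rose in all 3, to 3.80 ± 1.12 TPM in Tfr, 2.60 ± 0.332 TPM in Tfh and 0.90 ± 0.481 TPM in non-Tfh. CD4+ had 0.025 ± 0.0354 TPM (SD, n = 2 each). The CD4+ level rests on 2 counts in CD4+ and 0 counts in CD4+ MUT. The non-Tfh level rests on 31 counts in non-Tfh and 25 counts in non-Tfh MUT, and no counting interval is given. B cells carry Il18 too (18.42 TPM in splenic B), and the B-cell markers in the T libraries are given above; their part in this result was not tested. Ifng, a target of IL18 signalling, rose in all 3 (adjusted p between 0.00404 and 0.0237, edgeR), from 0 counts in CD4+ and 2 counts in CD4+ MUT. It was called among 3 of 8 response genes in Tfr (with Nfkbia and Areg), 3 of 8 in Tfh (with Il4 and Areg) and 1 of 8 in non-Tfh. The shares of all genes called were 30.4%, 26.4% and 3.85%, and a link of Ifng to IL18 was not tested. Of 14 adaptors and kinases, 5 were called in Tfr (Irak2 and Ube2n rose, Irak3, Tollip and Peli1 fell), 3 in Tfh (Ube2n rose, Irak3 and Peli1 fell) and 0 in non-Tfh, where 30.4%, 26.4% and 3.85% of all genes were called in Tfr, Tfh and non-Tfh. In Tollip the Tfr and CD4+ libraries overlapped in TPM.

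ConA activation rested on a single library and could not be tested, so genes were sorted by size: log2(TPM + 1) had to differ by at least 2 from both CD4+ libraries, with at least 10 TPM on the higher side. Il1r2 alone of the 8 members passed, where 3.88% of all 20163 genes did. It had 11.92 TPM after ConA, against 0.16 TPM in CD4+ MUT and 0.07 TPM in CD4+. Il18r1 had 10.52 TPM after ConA, against 36.85 TPM in CD4+ MUT and 40.32 TPM in CD4+, and Il1rl2 4.34 TPM, against 11.41 TPM and 15.26 TPM in those libraries, and neither passed. Il1rl1 stayed at 0.08 TPM after ConA. Of the pathway lists, Csf2 (112.14 TPM) and the type 2 cytokine Il13 (10.16 TPM) were higher after ConA and Bcl6 (1.88 TPM) was lower. The regulatory T markers summed to 583 TPM after ConA, of which Il2ra, also a gene of activated T cells, made up 445.18 TPM and Foxp3 6.31 TPM, against 8.12 TPM in CD4+ MUT and 8.95 TPM in CD4+. Their part in the Il1r2 level was not tested.

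LPS+IL4 B cells carried Il1r2 at a level within the range of the follicular T libraries. They had 89.67 TPM, from 5509 counts, against a highest value of 1.96 TPM in the other 6 primary B libraries. It was 1 of 8 members past the same rule of size, where 0.417% of all genes were. The other culture with IL4, aCD40+IL4, had 0.04 TPM from 1 count, so IL4 was present in both the highest and the lowest B library. T-cell markers summed to 0.67 TPM in the LPS+IL4 library and neutrophil markers to 0.12 TPM, so the markers of these cell types were near 0. Macrophage markers were not near 0 in the LPS+IL4 library. They summed to 47.2 TPM, more than in any other activated B culture, mostly from Cd68 (28.61 TPM) and Adgre1 (18.47 TPM). Splenic B cells had more of them, at 207 TPM, with Il1r2 at 0.80 TPM. The regulatory T list summed to 136 TPM in the LPS+IL4 library, against 2.34 to 24.9 TPM in the other 6 primary B libraries. That sum came from Ctla4 (82.64 TPM) and Il2ra (52.79 TPM), with Foxp3 at 0.20 TPM. Flt3, from the dendritic cell list, stood at 87.96 TPM, and the other markers of that list were near 0. The part of these genes in the result was not tested.

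In a fit of the 6 activated B cultures with IL4 and LPS as terms, 0 of the 6 members tested were called for IL4 (edgeR), where 0.04% of 12515 genes were called. At an unadjusted p under 0.05 there were 0 members and 1547 genes, and DESeq2 and limma called 0 members. Il1r2 had a log2 fold change of 4.84 ± 2.29 (adjusted p = 0.437). That value rests on the LPS+IL4 library, without which it was -5.66 ± 1.76 (adjusted p = 0.51, edgeR). Without the aCD40+IL4 or the aBCD180 culture, where the IL4 term is set by the LPS+IL4 library alone, Il1r2 was the 1 member called, with 68 of 13070 and 39 of 12334 genes called. Il1rl1 and Il1rl2 did not pass the filter on low counts. The aCD40+IL4 culture had the highest Il1rl1 (0.42 TPM), Il18r1 (2.14 TPM) and Il18rap (1.95 TPM) of the primary B libraries, and there the basophil markers summed to 11.4 TPM, the NK markers to 13.5 TPM and the neutrophil markers to 9.53 TPM; their part in these levels was not tested.

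CD4 T cells as a lineage differed from B cells in 5 of 8 members, where 46.4% of 12437 genes were called. Il18r1 rose by 6.73 ± 0.70 (adjusted p = 3.33e-06, edgeR), with a lowest value of 10.52 TPM, a median of 53.06 TPM and a highest of 151.97 TPM in 9 T libraries, against 0.16, 0.58 and 2.14 TPM in 7 B libraries. Il1rl2 rose by 6.48 ± 0.70 (adjusted p = 4.38e-06, edgeR), with 1.04, 7.24 and 15.79 TPM in the T libraries, against 0.04, 0.08 and 0.15 TPM in the B libraries. For these 2 members the lineages did not overlap, and how many of all genes did the same was not counted. Il18rap rose by 4.50 ± 1.02 (adjusted p = 0.00233, edgeR), Il1rl1 by 5.87 ± 1.52 (adjusted p = 0.00543) and Il1rap by 0.39 ± 0.15 (adjusted p = 0.0433), and their lineages overlapped. CD4+ MUT, CD4+ and ConA had 0.01, 0.02 and 0.08 TPM of Il1rl1, within the B range of 0.01 to 0.42 TPM. They had 0.41, 0.37 and 1.59 TPM of Il18rap, within the B range of 0.09 to 1.95 TPM. The rise of these 2 members thus lay in the Tfr, Tfh and non-Tfh libraries. With limma, Il1rl1 (adjusted p = 0.0517) and Il1rap (adjusted p = 0.0727) were not called. The spread in this fit includes differences of stimulus within each lineage.

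The inhibitory family receptor Sigirr, which dampens IL1 and IL33 signalling, also rose in T cells. It had a lowest value of 100.66 TPM, a median of 136.34 TPM and a highest of 220.87 TPM in the 9 T libraries, against 7.83, 25.03 and 64.79 TPM in the 7 B libraries (log2 fold change 2.09 ± 0.30, adjusted p = 6.78e-05, edgeR). The kinase-like inhibitor Irak3 fell, with 1.20, 2.58 and 7.21 TPM in the T libraries, against 9.07, 27.72 and 44.49 TPM in the B libraries (-2.65 ± 0.45, adjusted p = 0.000278, edgeR). Of 14 adaptors and kinases, 2 rose and 5 fell in T cells, a share near the 46.4% of all genes called.

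Basophils passed a rule of size of at least 3 on the log2(TPM + 1) scale against all 16 primary lymphocyte libraries for 2 of 8 members, where 1.41% of all genes did. Il1rl1 had 518.19 TPM in basophils, against a highest value of 30.95 TPM in lymphocytes, and Il18rap 397.33 TPM, against a highest of 43.20 TPM. Il18r1 was highest in basophils without passing (189.14 TPM, against 151.97 TPM in Tfr MUT). Of the pathway lists Nlrp3, a sensor that activates Casp1, passed with 50.09 TPM. Neutrophil, mast cell and macrophage markers stood in this library as given above, with Kit at 1.51 TPM and Ly6g at 838 TPM. Their part in the members' levels was not tested.

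In back skin no member passed the same rule against the other 21 libraries, where 2.71% of all genes did. Il1r1, Il1rn and Il1rl2 were nevertheless highest there. Il1rn had 47.71 TPM in back skin, against 17.82 TPM in the next library (Tfr MUT), and Il1rl2 had 31.25 TPM, against 15.79 TPM (non-Tfh MUT). Of the ligand list, 2 of 10 genes passed: Il1f10 had 81.08 TPM and Il1f5, the IL36 receptor antagonist, 40.28 TPM, against at most 0.09 and 0.05 TPM elsewhere. Keratinocyte markers summed to 6690 TPM and fibroblast markers to 1440 TPM in this library. The ligand Il33 was highest in brain, at 44.49 TPM in medulla oblongata, 17.00 TPM in sensorimotor cortex and 13.66 TPM in putamen, where Il1rl1 did not exceed 0.12 TPM.

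For each member the genes with the most similar levels were taken as those with the highest Pearson r of log2(TPM + 1) among genes with at least 10 TPM in any of the 22 libraries. Over the 16 primary lymphocyte libraries Il1rl1 was most like Medag (0.98), which did not exceed 0.86 TPM in them, and Klrg1 (0.98), Klrg1 being an inhibitory receptor with 238 TPM in Tfr. Il18rap was most like the chemokine receptors Cxcr3 (0.96) and Ccr2 (0.95), and Il1rn most like Ica1 (0.98). Il1r2 was most like Rab26 and Cpt1c (0.96 each; Cpt1c at most 1.73 TPM) and Il1rl2 most like Cyp2s1 (0.99). Over all 22 libraries Il18r1 was most like Cd226 (0.96), Cln3 and Lat (0.95 each), and Il1rl1 most like Lilr4b (0.94). The libraries share lineage and stimulus, so these values describe likeness in this set only.

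The deposited transcript length of a gene, which RSEM averages over its transcripts by estimated abundance, differed for some members. Annotated coding transcripts of Il1rl1 are 5302, 2661 and 1216 bases long, a longer membrane form and shorter forms being known for this gene. Its deposited length was 5127 bases in basophils (57315 counts), 5082 in Tfr MUT and 5074 in Tfr, and 4379 in back skin (147 counts). For Il18r1, with annotated transcripts of 4158, 1919 and 1738 bases, it lay between 3710 and 3857 bases in the 8 CD4 T libraries and was 2524 in back skin (123 counts). For Il1rap it was 2925 bases in CH12 (93 counts) and between 4170 and 4520 in all other libraries. No replicate exists for these single libraries.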

How the data were processed

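Poly(A) RNA of 22 mouse libraries was sequenced for 50 cycles on an Illumina HiSeq, per the labels. The submitters' processing notes name RSEM, STAR, bedtools, CASAVA 1.8.2 and the genome build mm10; their order and settings are not given in the sources used here. The deposited tables hold an expected count per gene (not normalized; 86.1% of those above 0 were whole, within 1e-09), a TPM scaled by the authors and an FPKM (not used here). The gap between a gene's length and effective length was 49.0 in the ConA, CH12, splenic B and LPS+IL4 B libraries and another value in the other 18. ConA was thus the only T library, and LPS+IL4 the only activated B culture, with that gap. The high Il1r2 of both, found by the rules of size, coincides with it. Splenic B and CH12 had the same gap, with Il1r2 at 0.80 and 0.26 TPM. The part of the gap in those results was not tested.

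Groups came from the labels. Expected counts were rounded and fitted with edgeR 4.0.16 under R 4.3.3, by quasi-likelihood tests after filterByExpr and TMM scaling, with Benjamini-Hochberg adjustment over all genes tested and with population and MUT label, IL4 and LPS, or lineage as terms; the code was tested on simulated counts. With 1 library per group, p-values measure the spread left after these terms and not a spread between replicates, and it may be technical. In the T fit it includes MUT differences that are not the same in all populations. Single-library comparisons used the rules of size. Alternatives used DESeq2 1.42.0 and limma 3.58.1. Counting intervals are exact, at 95%, and cover counting error only. The named genes are the 8 members; pathway genes are named where they were called, and some single genes of the lists are not reported here. Members, gene lists and motifs were chosen with earlier results of these data known.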

Additional observations from a re-analysis of the deposited data

Results flagged for a closer look

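The MUT label went opposite ways in Tfr and Tfh for Il1r2. On the log2(TPM + 1) scale MUT minus unmarked was 1.62 in Tfr and -1.32 in Tfh, a difference of 2.94 that was not tested, with 1 library on each side. Il18r1 did the same, with 1.50 in Tfr and -1.36 in Tfh, a difference of 2.86, also not tested.

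B-cell transcripts moved the other way in the same libraries. Ms4a1 had 18.56 TPM in Tfr MUT and 76.26 TPM in Tfr, and 111.3 TPM in Tfh MUT and 21.81 TPM in Tfh. The T-cell gene Cd3e moved less, with 810 TPM in Tfr MUT and 863 TPM in Tfr, and 610 TPM in Tfh MUT and 826 TPM in Tfh. Foxp3 had 579 TPM in Tfr MUT and 433 TPM in Tfr, and 69.2 TPM in Tfh MUT and 143 TPM in Tfh. Il1rl2 changed little, with MUT minus unmarked of 0.07 in both populations. The part of these markers in the differences was not tested.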

How the results depend on the processing

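Libraries could not be paired by animal or replicate, because each group has 1 library and the labels give no replicate numbers that link groups. The MUT test compares MUT with unmarked libraries within populations, and without its population term 0 genes were called too. Of 129 alternative member counts, 109 stayed within 1.5 times the reported count and 20 did not. Of the alternative values for single called members, 301 kept their direction and call, 32 kept their direction and lost the call, and 0 reversed. Without the Tfh MUT and Tfr libraries, the 2 T libraries with most B-cell transcripts, the count of called members was 4 for Tfr against Tfh (2 with all), 6 for Tfh against non-Tfh (3 with all) and 5 for non-Tfh against CD4+ (2 with all). Limma called 3 members for CD4 T against B (5 with edgeR). Leaving out each library in turn gave 0 to 3 members for Tfr against Tfh, 2 to 5 for Tfr against non-Tfh, 0 to 6 for Tfh against non-Tfh, 1 to 4 for non-Tfh against CD4+ and 0 to 1 for IL4. The 3 residual degrees of freedom of the T fit fall whichever library is left out, and the lone library left is assumed to vary like the other groups. Member counts moved both up and down, and the cause was not tested. The rules of size and the highest library of each member gave the reported counts under every alternative run.

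Counts over all genes moved more. For Tfr against Tfh 52 genes were called, 621 with DESeq2, 109 with limma, 138 with no MUT term, 1033 without the Tfh MUT and Tfr libraries and 0 to 458 without 1 library. For Tfr against non-Tfh it was 1907, 3359 with DESeq2 and 80 to 4119 without 1 library, and for Tfh against non-Tfh 860, 2312 with DESeq2 and 0 to 3561. For non-Tfh against CD4+ it was 503, 1204 with DESeq2 and 31 to 1203, for Tfh against CD4+ 3453 and 772 to 5423, for Tfr against CD4+ 3968 and 1087 to 5841, for MUT 0, 478 with Tfh MUT and Tfr both left out and 0 to 29 without 1, and for IL4 5, 463 with DESeq2 and 0 to 68. Leaving out both Tfh MUT and Tfr gave 4938 for Tfr against non-Tfh, 3221 for Tfh against non-Tfh, 3134 for non-Tfh against CD4+, 6355 for Tfr against CD4+ and 5484 for Tfh against CD4+. With limma the calls split into 3222 higher and 879 lower for Tfr against CD4+, and into 2197 and 1771 with edgeR. The same splits were 2886 and 786 with limma and 1994 and 1459 with edgeR for Tfh against CD4+, 1513 and 618, and 1030 and 877, for Tfr against non-Tfh, and 795 and 280, and 526 and 334, for Tfh against non-Tfh. For ConA 454 genes were higher and 329 lower, and 826 and 182 on TMM-scaled CPM.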
